A study of Mus musculus with 9 samples.

Results

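The circular RNAs described here are 2075 circles that a mouse circRNA array lists under names beginning with Fan. A circle was included if its probe name began with Fan and ended with the suffix of the array's circRNA probes, without the tag _neg. These 2075 probes were 6.80% of the 30534 circRNA probes on the array. The other 28459 circRNA probes comprised 14043 named by a genome position, 13892 named mmu_circ and 524 named mmu-circRNA. No measured value entered the choice.

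Circular RNAs are made when the spliceosome joins a downstream splice donor to an upstream acceptor, so that 1 or more exons close into a ring. Having no free ends, they resist exonucleases and tend to outlast the linear transcripts of the same gene, and a few are known to bind microRNAs or proteins. Liver is a tissue in which circles of many hepatocyte genes have been catalogued. Every Fan name has the form Fan_16_148 followed by a serial number. The prefix matches the first author, volume 16 and article 148 of a published catalogue of circRNAs in mouse preimplantation embryos, but no source used here states where the names come from. The serial numbers ran from 1 to 2890, of which 815 did not occur among the probes. The names carry no gene and no position, and no host gene, genome position or sequence was assigned to a Fan circle here. For the same reason the labelled tissue could not be checked against marker genes of liver cells.

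The livers came from 20-week-old males of the inbred C57BL/6J strain. Metformin mice had eaten a high fat diet (45% of energy as fat) for 17 weeks and were gavaged with metformin, a biguanide that lowers blood glucose, at 3 mg per kg per day over the final 5 weeks. High fat diet mice had the same diet with saline by gavage for those 5 weeks, and control mice ate chow with no gavage listed, so diet and gavage cannot be told apart in comparisons with control. There were 3 arrays in each group. RNA on an array came from 4 pooled livers, so p-values bear on the spread between pools. Total RNA had been digested with RNase R, an exonuclease that removes linear RNA, before labelling.

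Slide and column are as read from the names of the scans, in which an unlabelled digit was taken as the column. By that reading, metformin arrays 1 and 2 and high fat diet arrays 2 and 3 shared column 2 of slide 1. High fat diet array 1 sat in column 1 with the 3 controls. Metformin array 3 was alone on slide 2. Among all probes that were not controls, 69.4% to 84.3% per array were well above background, Agilent's flag for a spot brighter than its surroundings. Metformin array 3 and high fat diet array 2 had the lowest shares of Fan circles above background. The groups are therefore partly confounded with the place of the array.

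The level of a circle is given as log2 of its processed intensity above the array's 75th percentile, so that 0 is the 75th percentile and 1 unit is a 2-fold difference in brightness. Levels of different probes depend on each probe's own response and were compared only as brightness.

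Most Fan circles gave a signal in these livers. On all 9 arrays 1582 of the 2075 (76.2%) were well above background, against 21348 of the 28459 other circRNA probes. A further 322 were well above background on 1 to 8 arrays, and 171 (8.24%) on none, against 8.89% of the others. By group, 1597 Fan circles (77.0%) were well above background on all 3 metformin arrays, 1681 (81.0%) on all 3 high fat diet arrays and 1774 (85.5%) on all 3 control arrays. The lower counts in the metformin and high fat diet groups moved with metformin array 3 and high fat diet array 2. No Fan spot was saturated.

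The share of Fan circles well above background was 89.5%, 89.3% and 77.2% on the metformin arrays, 88.7%, 81.3% and 85.1% on the high fat diet arrays, and 87.1%, 86.8% and 89.8% on the control arrays. The metformin group held both the second highest and the lowest share, and the groups overlapped. The mean share was 85.3 ± 7.05% in metformin livers, 85.03 ± 3.66% in high fat diet livers and 87.9 ± 1.64% in control livers (SD, n = 3 each). High fat diet minus control was -2.88 percentage points (two-sided exact permutation p = 0.3), metformin minus high fat diet 0.32 points (p = 0.8) and metformin minus control -2.55 points (p = 0.8). With 3 arrays against 3 the smallest p such a test can give is 0.1.

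Mean levels over the arrays spread from -7.08 to 5.60, with a median of -1.23 and an interquartile range from -3.14 to 0.49. The other circRNA probes had a median of -1.30 and reached 8.55. Fan circles were scarce at the very top, and so were the position-named probes. The brightest 1% held 0.39% of Fan circles and 0.43% of position-named probes, against 1.66% of mmu_circ and 1.34% of mmu-circRNA probes. Fan circles made up 8 of the 306 circRNA probes in the brightest 1% (2.61%), 203 of 3054 in the brightest 10% (6.65%) and 1056 of 15266 in the brighter 50% (6.92%), beside their 6.80% share of the array. Levels of the Fan circles correlated closely between any pair of arrays. The Pearson correlations were 0.975 to 0.992 over the 1958 circles with unflagged spots on all arrays. Over all circRNA probes they were 0.976 to 0.992.

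The brightest Fan circle was Fan_16_148_36. Its level was 5.71, 5.48 and 5.63 in metformin livers, 5.57, 5.31 and 5.31 in high fat diet livers, and 5.71, 5.82 and 5.85 in control livers. All high fat diet arrays were below all control arrays, while metformin arrays overlapped the high fat diet arrays. The next by mean level, Fan_16_148_1040, had unflagged spots on 3 arrays only, with levels of 5.30 and 5.31 on high fat diet arrays 2 and 3 and 5.52 on control array 3. Fan_16_148_2655 averaged 5.22 ± 0.22 in metformin livers (SD over 2 unflagged arrays), 4.92 ± 0.20 in high fat diet livers and 5.05 ± 0.10 in control livers (SD, n = 3 each). The other 5 of the brightest 8, Fan_16_148_685, Fan_16_148_725, Fan_16_148_1470, Fan_16_148_2870 and Fan_16_148_155, had mean levels between 4.41 and 4.76. Each of the 8 was well above background on every array.

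Each circRNA probe has a partner on the array, a probe with the same name and the tag _neg. No source used here says which RNA the partners were meant to detect, so a partner's brightness is given as a measured companion value and nothing is read from it about the circle. The difference of the log2 intensities, probe minus partner, is called the log2 ratio below.

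Fan probes were mostly brighter than their partners. The mean log2 ratio had a median of 0.81 over the Fan circles, with an interquartile range from 0.14 to 1.99, and spread from -3.94 to 8.14. The other circRNA probes had a median of 0.74. The probe was brighter on all 9 arrays for 1281 Fan circles (61.7%), against 58.6% of the others. The partner was brighter on all 9 arrays for 164 Fan circles (7.90%), against 11.9% of the others. The partners were themselves well lit: per array 76.8%, 76.4% and 61.8% of Fan partners were well above background in metformin livers, 74.9%, 63.8% and 69.3% in high fat diet livers, and 71.7%, 72.3% and 77.8% in control livers. On every array this share was lower than for partners of the other probes (means over the arrays 71.7% against 73.5%). The median partner level averaged -2.58 for Fan and -2.52 for the others.

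**Figure D1:**
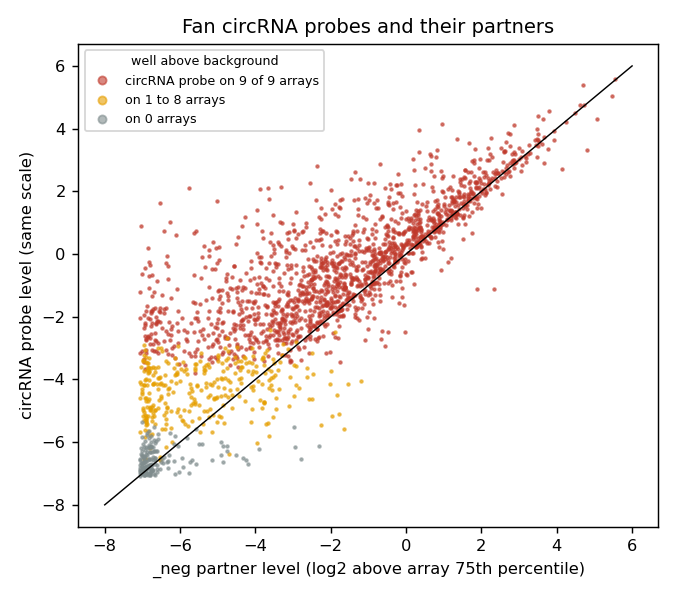
Mean level of each Fan circRNA probe (vertical axis) against that of its _neg partner (horizontal axis), both as log2 above the array's 75th percentile over the 9 arrays; 1 point is 1 circle, colour gives the number of arrays on which the circRNA probe was well above background, and the line marks equal brightness. Most points lie above the line (median log2 ratio 0.81), and points at the bright end lie close to it.

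For 1204 Fan circles (58.0%) probe and partner were both well above background on all 9 arrays. For 104 circles (5.01%, against 4.14% of the others) the flag was set for the probe on all 9 arrays and for the partner on none. These 104 had levels from -3.79 to 1.62, with a median of -2.18, and their log2 ratio is only bounded. With a dark partner set to the lowest signal well above background on its array, or its own signal if higher, the ratio was at least 3.21 in the median of the 104. Fan_16_148_965 was among the 4 with the largest measured ratios. Its probe stood at 1.54, 1.58 and 1.44 in metformin livers, 1.52, 1.53 and 1.33 in high fat diet livers and 1.89, 1.87 and 1.85 in control livers. Its partner was dark on every array, with levels between -7.44 and -5.71. The control arrays were the brightest 3 for this probe, with no overlap with either other group.

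By the same bound, the mean log2 ratio of Fan_16_148_965 over the 9 arrays was at least 7.03. The bound was 6.40 for Fan_16_148_1957, whose partner was also dark on every array, and 7.02 and 6.17 for Fan_16_148_1039 and Fan_16_148_2680, each with a partner well above background on 1 array. No order is read among these 4. The last 3 probes had levels between 0.58 and 2.34 on every array.

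At the other end, some Fan probes were well above background on all 9 arrays while their partners were far brighter. Fan_16_148_986 had a log2 ratio of -3.66, -3.56 and -3.87 in metformin livers, -3.75, -2.62 and -3.56 in high fat diet livers and -3.12, -3.35 and -3.52 in control livers. High fat diet array 2 was the mildest of the 9, and the groups overlapped. Its probe averaged -1.13 over the 9 arrays, near the median Fan circle. Fan_16_148_2086, Fan_16_148_2116 and Fan_16_148_1454 had mean log2 ratios of -2.999, -2.47 and -2.36, each negative on every array. The authors' deposited table lists all 4 of these circles at -3.32 on every array, the lowest value in it.

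That floor was common in the table. The authors' deposited values put 179 Fan circles (8.63%) at -3.32 on all 9 arrays, against 12.7% of the other circRNA probes, and 1359 (65.5%, against 62.0%) on none. Per array, 18.6% to 22.5% of Fan circles were listed at the floor, beside 17.9% to 22.1% whose partner was brighter in the scanner values. Bright probes could be there too. Fan_16_148_2655, the third brightest Fan circle, had log2 ratios from -0.62 to -0.29 on the 6 arrays with both spots unflagged and was at the floor on every array. For 5 of the 8 brightest Fan circles the mean log2 ratio lay within 0.5 of 0, and over all Fan circles 422 (20.3%) lay within 0.25 of 0.

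The ratio changed with brightness. With all circRNA probes split by mean level into 4 bins of equal size, from dimmest to brightest, the median log2 ratio was 0.53, 1.22, 1.03 and 0.57 for Fan circles and 0.25, 0.98, 0.98 and 0.78 for the others. Fan circles were thus higher than the others in the dimmer bins and lower in the brightest. The partner was brighter on average for 28.7%, 14.6%, 14.6% and 15.7% of Fan circles in these bins, and for 37.3%, 20.9%, 16.0% and 14.6% of the others.

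**Figure D2:**
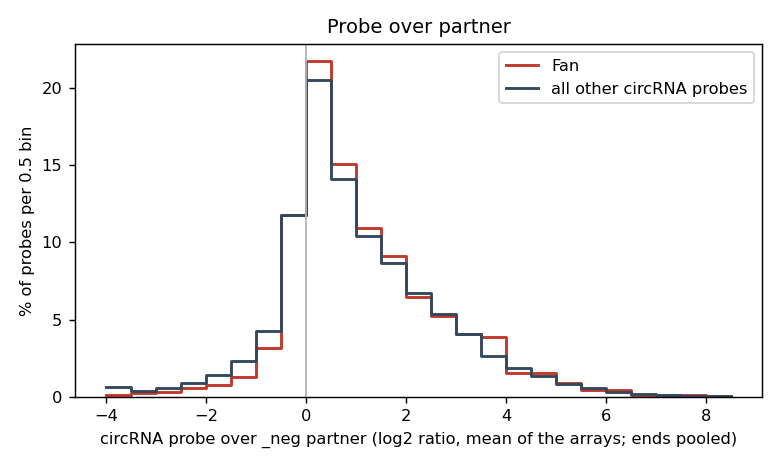
Share of circRNA probes (vertical axis, % per bin of 0.5) by mean log2 ratio of circRNA probe over _neg partner (horizontal axis), for the Fan circles and for all other circRNA probes; values past the ends are pooled in the end bins. The Fan line lies lower at negative ratios, where 18.2% of Fan circles and 22.2% of the others had a brighter partner.

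Against the other circRNA probes as a whole, Fan circles were slightly brighter, more often detected and further above their partners, in every array. The median Fan level exceeded the median of the others by 0.055 ± 0.043 (SD over 9 arrays; 0.0077 to 0.145), which was above 0 in 9 of 9 arrays (two-sided exact sign-flip permutation p = 0.003906, the smallest that 9 arrays can give; 0.0067 after Benjamini-Hochberg adjustment over 12 comparisons). The detection share was higher by 1.15 ± 0.587 percentage points (0.62 to 2.48), and the median log2 ratio by 0.090 ± 0.027 (0.036 to 0.114), each in 9 of 9 arrays with the same p. The lead in log2 ratio was 0.047 under either normexp setting and 0.144 as a mean over probes, each above 0 in 9 of 9 arrays. In the authors' deposited values the Fan median led by 0.185, above 0 in 9 of 9 arrays. That lead is not a repeat of the lead in level, because the deposited values may not be levels of the probe alone. Fan_16_148_36, for example, was at their floor only on high fat diet arrays 1 and 3, where its partner was brighter. Under either normexp setting the lead in level was 0.040, above 0 in 8 of 9 arrays (exact sign-flip p = 0.012 each). The 9 arrays share their probes, so these p-values bear on other arrays of this design and not on other circles. All of these differences were a small part of the spread between circles.

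The comparison depended on which names were set against Fan. Against the mmu_circ probes the Fan median level was lower, by -0.093 ± 0.057, and above 0 in 1 of 9 arrays (exact sign-flip p = 0.0078, adjusted p = 0.012). Their detection shares differed by -0.081 percentage points (exact sign-flip p = 0.69), while the log2 ratio was higher by 0.073 ± 0.026 in 9 of 9 arrays (exact p = 0.003906). Against the probes named by position the Fan circles were higher in 9 of 9 arrays by all 3 measures, by 0.20 in level, 2.39 percentage points in detection and 0.11 in log2 ratio (exact sign-flip p = 0.003906 each). Against the 524 mmu-circRNA probes the level differed by 0.073 (exact sign-flip p = 0.031, adjusted p = 0.042), detection by 0.873 points (p = 0.13) and the log2 ratio by 0.013 (p = 0.47). Fan circles thus lay between the mmu_circ and the position-named probes in level.

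Among circles well above background on all 9 arrays, the Fan lead was no longer seen: 0.0071 in level (exact sign-flip p = 0.60) and -0.00032 in log2 ratio (p = 0.97).

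**Figure D3:**
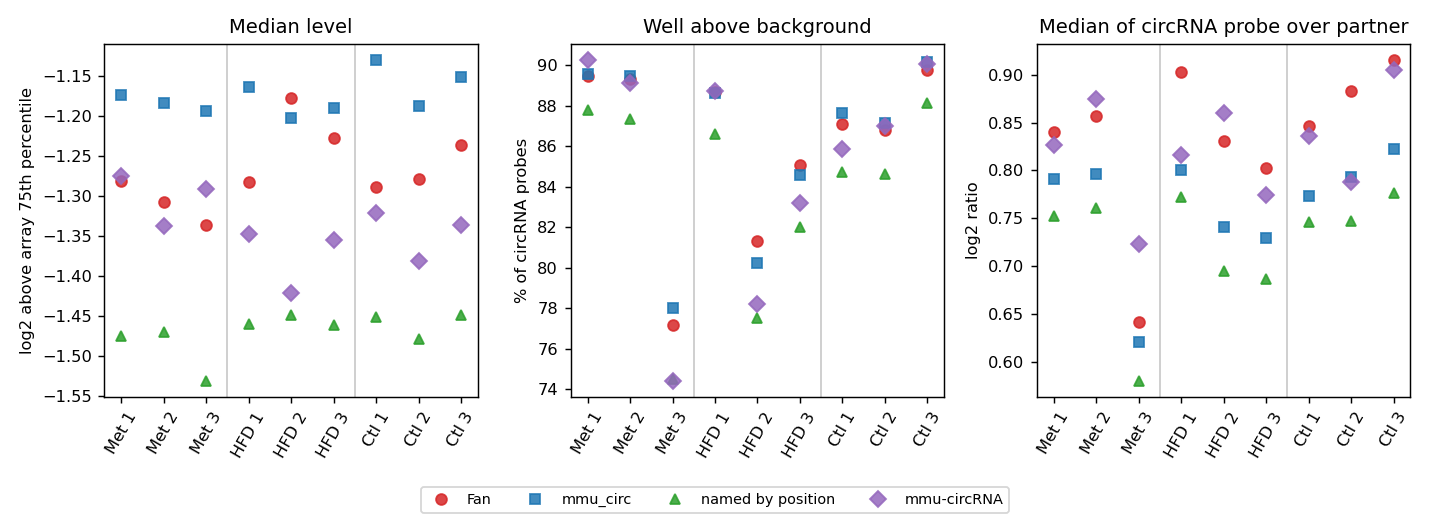
Median level (log2 above the array's 75th percentile), share well above background (%) and median log2 ratio of circRNA probe over _neg partner for the 4 kinds of names; 1 marker is 1 array, with metformin (Met), high fat diet (HFD) and control (Ctl) arrays from left to right. In the left panel Fan circles lie above the position-named circles on every array and below mmu_circ on 8 of 9; metformin array 3 is lowest in detection and ratio for every kind.

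The median Fan level was -1.28, -1.31 and -1.34 on the metformin arrays, -1.28, -1.18 and -1.23 on the high fat diet arrays and -1.29, -1.28 and -1.24 on the control arrays. Metformin arrays were at the low end and high fat diet arrays 2 and 3 at the high end, with overlap in each pair of groups. High fat diet minus control was 0.039 (two-sided exact permutation p = 0.3), metformin minus high fat diet -0.079 (p = 0.2) and metformin minus control -0.041 (p = 0.2), none past the adjusted threshold over 18 such comparisons. The first was 0.013 without high fat diet array 2, 0.065 without high fat diet array 1 and 0.0085 with normexp and 75th percentile scaling. Within column 1, high fat diet array 1 differed from the 3 control arrays by -0.014, and within column 2 the 2 metformin arrays differed from the 2 high fat diet arrays by -0.092.

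The median log2 ratio of Fan circles was 0.84, 0.86 and 0.64 on the metformin arrays, 0.90, 0.83 and 0.80 on the high fat diet arrays and 0.85, 0.88 and 0.92 on the control arrays. Metformin array 3, the array with the lowest detection, had the lowest ratio, and the other metformin arrays lay within the range of the high fat diet arrays. The lead of Fan over the other circles in log2 ratio averaged 0.060 ± 0.021 in metformin livers, 0.106 ± 0.010 in high fat diet livers and 0.104 ± 0.016 in control livers (SD, n = 3 each). All 3 metformin arrays were below all arrays of each other group, at the smallest exact p that 3 against 3 allows (0.1; 0.45 adjusted). The lead in detection was 0.89 ± 0.10 points in metformin livers, 1.75 ± 0.73 in high fat diet livers and 0.81 ± 0.18 in control livers, with the high fat diet arrays above both other groups (exact p = 0.1 each, 0.45 adjusted).

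Of the Fan circles, 1777 (85.6%) entered the test of group differences, being well above background throughout at least 1 group, against 84.6% of the others, and 298 did not. The fit ran on all such circRNA probes together, with limma, and p-values were adjusted over all of them. A circle that passed this filter through 1 group only had to be brighter there, so counts below describe the tested circles and not all members.

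No Fan circle passed an adjusted p of 0.05 in any comparison, and no circRNA of the array did (0.0% called in high fat diet against control, 0.0% in metformin against high fat diet and 0.0% in metformin against control). The smallest limma adjusted p among Fan circles was 0.169 in the first comparison, 0.707 in the second and 0.290 in the last. Precision was even across comparisons, with a median standard error of 0.16 for a Fan log2 difference in each comparison.

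High fat diet livers were set against control livers to ask what diet with saline gavage did to the circles. At an unadjusted p under 0.05, 101 of 1769 tested Fan circles (5.71%) differed, against a background of 7.25% of all tested circRNAs. Of these, 31 were higher (1.75%, background 2.07%) and 70 lower (3.96%, background 5.18%) in high fat diet livers. The groups did not overlap for 193 of the 1681 Fan circles with unflagged spots on all 6 arrays (11.48%, background 12.6%). A log2 difference past 1 was seen for 4 of 1769 Fan circles (0.226%, background 0.415%), all lower in high fat diet livers. However, Fan_16_148_1250, Fan_16_148_1884 and Fan_16_148_41 among them passed the filter through the control group alone, where they had to be brighter. No result is read from the shared direction. The median difference was -0.038 over tested Fan circles and -0.056 over all tested circRNAs, opposite in sign to the difference of array medians over all Fan circles (0.039).

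Fan_16_148_1250 had the smallest p, but it entered the test through the control group alone, so the filter favoured its direction. Its level was -5.04, -4.25 and -4.69 in metformin livers and -4.99, -4.84 and -4.64 in high fat diet livers, against -3.28, -3.68 and -3.51 in control livers. Every high fat diet array was well below the lowest control array, and high fat diet array 1, which shared the controls' column, was the lowest of them. It was well above background on 3 of 3 control arrays and on 0 of 3 high fat diet arrays, so that only a bound is given: at least 2.10-fold lower in high fat diet livers (measured mean -4.82 against -3.49; limma adjusted p = 0.169). Bounds compare the brighter group's mean with the lowest signal that was well above background on each array of the dimmer group, or the probe's own signal there if higher. They hold for the processed intensity only. With normexp the log2 difference of Fan_16_148_1250 was -0.64 (75th percentile scaling) and -0.57 (quantile normalization), smaller than its bound. Its partner was well above background on 1 of 9 arrays, so no difference is given for it.

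Fan_16_148_1884, which likewise entered the test through the control group alone, was also dark in every high fat diet liver. It stood at -5.16, -6.03 and -5.43 there, against -4.11, -3.95 and -4.46 in control livers. The arrays did not overlap, and the bound was at least 1.44-fold lower (means -5.54 against -4.17; limma adjusted p = 0.187). Its partner was dark on every array. Fan_16_148_41 and Fan_16_148_2726, chosen because they were on in control and off in high fat diet livers, had bounds of at least 1.47-fold (means -5.99 against -4.30; limma adjusted p = 0.604) and at least 1.46-fold lower (means -4.96 against -4.22; adjusted p = 0.721), with overlapping arrays. These 4 were the only Fan circles on in all arrays of one of these groups and off in all of the other, of 1769 tested (0.226%), against a background of 0.182%. All 4 passed the filter through the control group alone. With normexp and 75th percentile scaling, the log2 differences of Fan_16_148_1884 and Fan_16_148_41 were -0.40 and -0.19, smaller than their bounds.

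Fan_16_148_1788 was well above background everywhere. Its level was -2.33, -2.96 and -2.67 in high fat diet livers, against -1.67, -1.29 and -1.25 in control livers. The groups did not overlap, and the log2 difference was -1.25 with a standard error of 0.25 (0.42-fold, limma adjusted p = 0.244). Its partner differed by -1.29, so the log2 ratio was nearly equal in the groups, at 0.89, 0.88 and 1.21 in high fat diet livers and 0.86, 0.95 and 1.07 in control livers. Fan_16_148_295 averaged -2.98 ± 0.24 in high fat diet livers and -2.15 ± 0.24 in control livers (SD, n = 3 each), a log2 difference of -0.83 (limma adjusted p = 0.354). Fan_16_148_1682 averaged -4.91 ± 0.07 and -4.23 ± 0.23 in the same order, and was well above background on 1 high fat diet array and 3 control arrays, with a partner that was dark on all 9. Neither showed overlap between the groups. Fan_16_148_1682 had passed the filter through the control group alone.

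Of the circles brighter in high fat diet livers, Fan_16_148_2248 had the smallest p. It stood at -2.59, -2.57 and -2.84 in high fat diet livers, against -3.26, -3.75 and -3.38 in control livers. No arrays of the groups overlapped, the log2 difference was 0.79 with a standard error of 0.18 (1.73-fold, limma adjusted p = 0.299), and its partner, the brighter probe of the pair on all 9 arrays, differed by 0.38. The authors' deposited table lists this circle at its floor on every array. Fan_16_148_1427 stood at 0.05, -0.05 and -0.18 in high fat diet livers, against -0.68, -0.52 and -0.53 in control livers. Its arrays were tight within each group, and probe and partner differed alike, by 0.52 and 0.51 (limma adjusted p = 0.358 for the probe).

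Fan_16_148_1620 showed the largest difference among these 5. Its level was 0.84, 0.19 and -0.03 in high fat diet livers, against -0.46, -0.27 and -0.79 in control livers. High fat diet array 1, in the controls' column, was the highest of all. The probe's log2 difference was 0.84 (limma adjusted p = 0.379), and the partner's was larger, 1.20, so the log2 ratio was lower in high fat diet livers by -0.36. Fan_16_148_1792 and Fan_16_148_719 were higher by 0.54 and 0.56 (limma adjusted p = 0.455 and 0.485), with partners higher by 0.45 and 0.57.

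**Figure D4:**
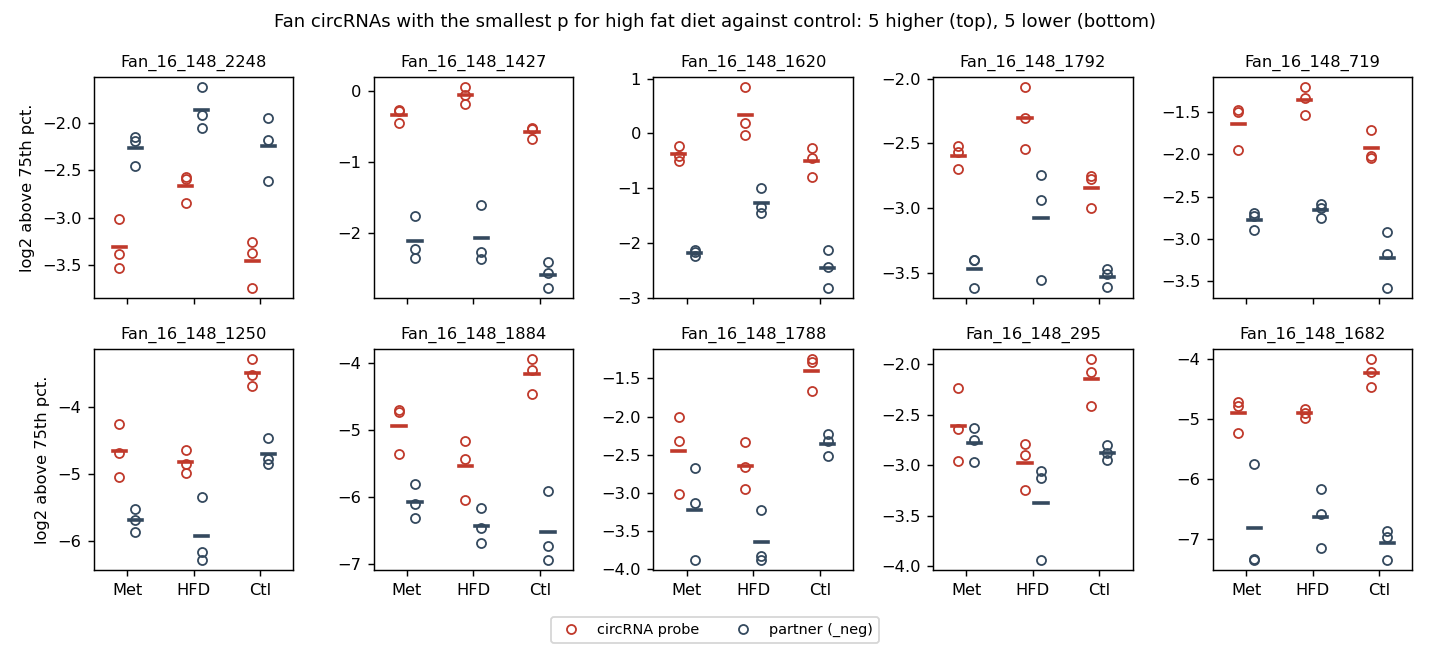
Level (vertical axis, log2 above the array's 75th percentile, own scale per panel) of the 5 Fan circles with the smallest p among those higher (top) and among those lower (bottom) in high fat diet than in control livers; circles are single arrays of metformin (Met), high fat diet (HFD) and control (Ctl) livers, bars are group means, and colour separates the circRNA probe from its _neg partner. In all 10 panels the circRNA probe's high fat diet and control arrays do not overlap, and the partners of Fan_16_148_1884 and Fan_16_148_1682 were below background on every array.

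Metformin livers were set against high fat diet livers to ask what the drug did on the same diet. At an unadjusted p under 0.05, 50 of 1774 tested Fan circles (2.82%) differed, against a background of 3.9%. Of these, 23 were higher (1.30%, background 2.32%) and 27 lower (1.52%, background 1.58%) in metformin livers. The groups did not overlap for 117 of 1690 circles (6.92%, background 7.74%), 1 circle had a log2 difference past 1 (background 0.163%), and none was on in one group and off in the other (background 0.0155%). The median difference was 0.013 over tested Fan circles and 0.030 over all tested circRNAs, again opposite in sign to the difference of array medians (-0.079).

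Fan_16_148_1379 had the smallest p of this comparison. Its level was -3.17, -3.38 and -3.34 in metformin livers, against -4.29, -3.77 and -4.02 in high fat diet livers. Metformin arrays were all above the rest, and the control arrays, at -3.97, -3.83 and -3.84, lay with the high fat diet arrays. The log2 difference was 0.73 with a standard error of 0.15 (limma adjusted p = 0.707), and the circle was well above background on 3 metformin arrays and 1 high fat diet array. Its partner differed by -0.20, so that the log2 ratio was 0.81, 0.57 and 0.23 in metformin livers, against -0.23, -0.28 and -0.67 in high fat diet livers. The probe was thus the brighter of the pair on every metformin array and the dimmer on every other array, -0.44, -0.14 and -1.10 in control livers included. The authors' deposited values for it were 5.23, 4.64 and 4.36 in metformin livers and the floor of -3.32 on all 6 other arrays.

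Fan_16_148_2266 was next among the higher circles. It stood at -0.54, -0.65 and -0.81 in metformin livers, against -1.25, -1.06 and -1.24 in high fat diet livers. There was no overlap, and probe and partner differed by the same 0.51 (limma adjusted p = 0.969 for the probe). Fan_16_148_1809 differed by 0.77, with high fat diet array 1 inside the metformin range, and Fan_16_148_145 and Fan_16_148_100 by 0.40 and 0.41, each with limma adjusted p = 0.969 and a partner that was higher too.

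Among circles lower in metformin livers, Fan_16_148_2248 had the smallest p, and Fan_16_148_1849 and Fan_16_148_1620 the next. Fan_16_148_2248 and Fan_16_148_1620 were also among the 5 named as brighter in high fat diet than in control livers. The comparisons share the high fat diet arrays. Fan_16_148_2248 stood at -3.01, -3.54 and -3.39 in metformin livers, against the high fat diet values above, a log2 difference of -0.65 (limma adjusted p = 0.969). Fan_16_148_1620 stood at -0.41, -0.23 and -0.51, a log2 difference of -0.72 (limma adjusted p = 0.969), beside -0.91 for its partner. Fan_16_148_1849 and its partner differed by -0.52 and -0.62. Fan_16_148_451 and Fan_16_148_558 differed by -0.56 and -0.64, but the partner of Fan_16_148_558 differed by 0.70 in the opposite direction, and that of Fan_16_148_451 was dark on all arrays. Fan_16_148_41, the circle past 1 and named for that (limma adjusted p = 0.969), was well above background on 1 of 3 metformin arrays and on no high fat diet array, so no size is given.

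Metformin livers were also set against control livers, a comparison that joins diet, gavage and drug. At an unadjusted p under 0.05, 94 of 1767 tested Fan circles (5.32%) differed, against a background of 5.07%. Of these, 30 were higher (1.70%, background 1.64%) and 64 lower (3.62%, background 3.43%) in metformin livers. The groups did not overlap for 179 of 1672 circles (10.71%, background 11.6%), 2 had a log2 difference past 1 (background 0.295%), and none was on in one group and off in the other (background 0.0155%). The median difference was -0.029 over tested Fan circles and -0.028 over all tested circRNAs.

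The 2 circles past 1 were Fan_16_148_1250, at -1.17 with a standard error of 0.20 (limma adjusted p = 0.290; well above background on 1 of 3 metformin arrays), and Fan_16_148_1788, at -1.05 with a standard error of 0.25 (adjusted p = 0.606). Both had also been lower in high fat diet than in control livers, and the comparisons share the control arrays. Fan_16_148_1250 had passed the filter through the control group alone. Fan_16_148_1788 stood at -2.32, -2.01 and -3.01 in metformin livers, all below the control arrays. Its partner differed by -0.87, in parallel with the probe.

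Of the other circles lower in metformin than in control livers, Fan_16_148_1231 stood at -2.73, -2.78 and -2.58 in metformin livers, against -1.85, -2.07 and -2.29 in control livers. All metformin arrays were below all control arrays, and the log2 difference was -0.63 (limma adjusted p = 0.606) beside -0.44 for the partner. Fan_16_148_234 also differed by -0.63, with a partner that was dark on 8 of 9 arrays, and Fan_16_148_2420 by -0.52 (limma adjusted p = 0.672 each). Fan_16_148_234 too had passed the filter through the control group alone.

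Of the circles higher in metformin than in control livers, Fan_16_148_142 had the smallest p. It stood at -1.75, -1.51 and -2.04 in metformin livers, against -2.53, -2.43 and -2.55 in control livers. Control arrays were tight and metformin array 3 was the nearest to them. The log2 difference was 0.74 (limma adjusted p = 0.56), and the partner's was larger, 0.97. Fan_16_148_1087, a bright circle, averaged 2.37 ± 0.11 in metformin livers and 1.90 ± 0.03 in control livers (SD, n = 3 each; limma adjusted p = 0.718). Fan_16_148_1463, with a log2 ratio of at least 4.01 on every array, averaged 0.95 ± 0.23 and 0.40 ± 0.20 in the same order (limma adjusted p = 0.855). Fan_16_148_2854 differed by 0.49 while its partner differed by -0.40, and Fan_16_148_1379 by 0.58 with its partner at -0.51 (limma adjusted p = 0.795 and 0.718).

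Group differences of a Fan probe and of its partner went together. Across circles with both probes tested, the correlation of their log2 differences was 0.56 over 1413 circles when high fat diet was set against control, 0.49 over 1418 when metformin was set against high fat diet, and 0.53 over 1412 when it was set against control. This describes circles on shared arrays, and circles are not independent replicates. These correlations, and the shares of equal sign that follow, are given for Fan circles alone and are not read as particular to them. Of the circles at an unadjusted p under 0.05 whose partner was tested, the sign of the partner's difference was the same for 66 of 74 (89.2%), 30 of 36 (83.3%) and 62 of 69 (89.9%) in these comparisons. No Fan partner passed an adjusted p of 0.05 in the limma fit of the partners, while 94 of 1451 (6.48%), 57 of 1454 (3.92%) and 107 of 1451 (7.37%) had an unadjusted p under 0.05, against 7.09%, 4.56% and 6.18% of all tested partners.

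**Figure D5:**
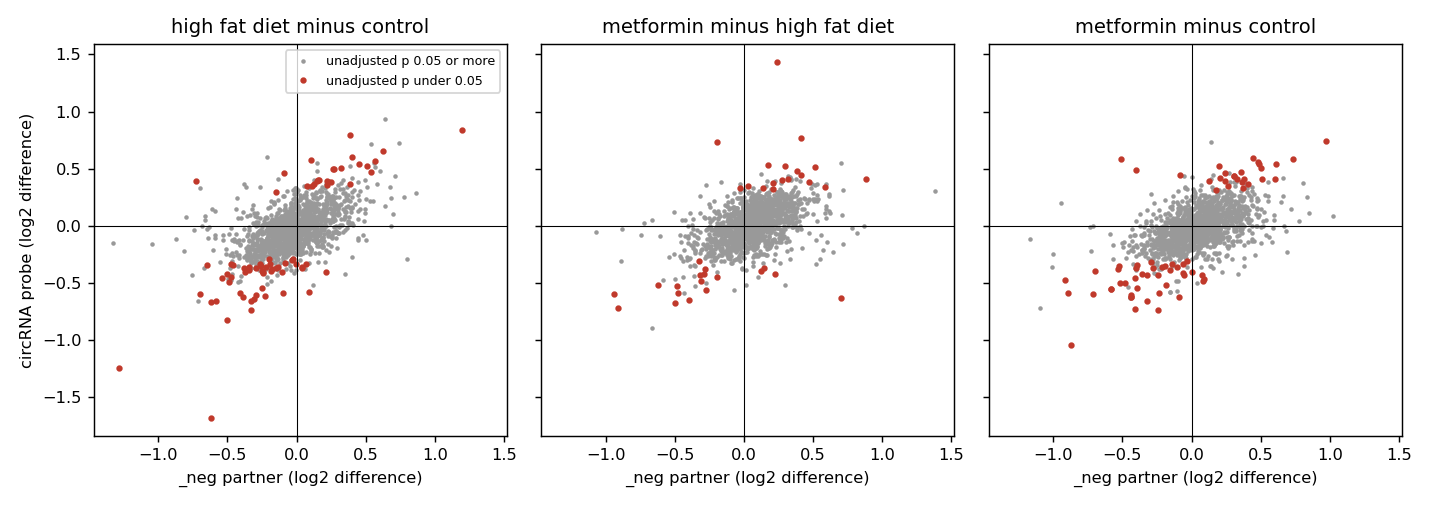
Log2 difference of the Fan circRNA probe (vertical axis) against that of its _neg partner (horizontal axis) in the 3 comparisons; 1 point is 1 circle with both probes tested, and red marks an unadjusted p under 0.05 for the circRNA probe. The clouds slope upward (correlations 0.56, 0.49 and 0.53), and most red points lie in the lower left and upper right quadrants.

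Some tested circles had a dark partner. Of 180 tested Fan circles whose partner was well above background on no array, 18 had an unadjusted p under 0.05 in high fat diet against control livers, 4 of them higher and 14 lower. In metformin against high fat diet livers 8 did, 3 higher and 5 lower, and in metformin against control livers 18 did, 2 higher and 16 lower. These were 10%, 4.44% and 10% of the 180, against 10.3%, 7.20% and 9.11% of all tested circRNAs with a dark partner, of which 2.17%, 3.35% and 1.54% were higher and 8.16%, 3.85% and 7.57% lower. Dim circles could pass the filter through the brighter group alone. None of these passed the limma adjusted threshold, the smallest adjusted p being 0.187, 0.969 and 0.672.

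The spread of single circles over the 9 arrays was small for most. Among circles well above background on all arrays, the median of the within-group SD was 0.19 for Fan circles and 0.19 for the others. Fan_16_148_1422 was the steadiest, with levels from -1.45 to -1.28 (SD 0.060 over 9 arrays), followed by Fan_16_148_1569, with levels from 2.14 to 2.33 (SD 0.063). The widest of these was Fan_16_148_2371. Its level was -1.48, -2.97 and -2.58 in metformin livers, -2.30, -2.80 and 0.75 in high fat diet livers and -2.63, -2.71 and -1.81 in control livers. High fat diet array 3 stood far above the other 8. Its partner there was -0.35, also the highest of the 9.

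Fan_16_148_1873 had the same pattern. It stood at 0.42 on high fat diet array 3 and between -2.62 and -1.38 on the other 8 arrays. Its partner was -0.24 there, against -3.40 to -1.97 elsewhere. The log2 ratio of this circle on that array, 0.66, was inside the range of the other arrays, while that of Fan_16_148_2371 was the highest of its 9. The means of these circles in high fat diet livers, -1.45 and -1.37, rest on that single pool of 4 livers.

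Neighbouring serial numbers did not share levels. Over 1508 pairs of consecutive serials the correlation of mean level was 0.016, that of the partner's level 0.015, and that of the high fat diet minus control difference -0.024 over 1103 pairs.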

How the data were processed

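Liver circRNAs were measured on 9 1-colour Agilent arrays, 3 per group. Agilent Feature Extraction 11.5.1.1 made the deposited spot intensities, per the file headers (the submitters' processing notes name 10.7), and its processed intensity is background-subtracted. The authors' deposited value table holds values on a log2 scale with a floor of -3.32 and a median of 6.51 in every array's column. How they were centred is unknown, and they served as an alternative.

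Here the processed intensity was taken as log2 minus each array's 75th percentile over the 61079 probes that were not controls, with spots flagged as outliers left out. Group differences were fitted with limma 3.58.1 (R 4.3.3) on all 9 arrays, with 6 residual and 5.72 prior degrees of freedom, and adjusted by Benjamini-Hochberg over all circRNA probes tested. Fan and other probes were compared per array by an exact sign-flip test. The limma step was checked on simulated data. The number of arrays limits the precision.

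The named circles were the 8 brightest, the 4 highest and 4 lowest log2 ratios and the 2 largest and 2 smallest SDs among circles well above background on all 9 arrays, and in each comparison the 5 higher and 5 lower with the smallest p among circles unflagged on all 6 arrays, plus up to 3 that were on in one group and off in the other. Fan_16_148_41 in metformin against high fat diet livers was named after its value was seen. Members and lists were chosen with earlier results of these data known. Alternatives changed background correction, normalization, filter, variance model, array place, replicate block and the arrays left out. The normexp alternatives had been planned on mean spot signals and were run on median spot signals, the column the files hold.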

Additional observations from a re-analysis of the deposited data

How the results depend on the processing

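With only circles well above background on all 9 arrays, the Fan lead over the other probes was 0.0071 in level and -0.00032 in log2 ratio. Against mmu_circ probes alone it was -0.093 in level and -0.081 percentage points in detection, and against mmu-circRNA probes alone 0.873 points in detection and 0.013 in log2 ratio. The lead in level was 0.040 with normexp, above 0 in 8 of 9 arrays. The Fan median led by 0.185 in the authors' deposited values, which may not be levels of the probe alone. The lead in log2 ratio was 0.047 with normexp and 0.144 as a mean over probes. The cause of these changes was not tested. The shift of the median Fan level between metformin and high fat diet was -0.027 with normexp and 75th percentile scaling and -0.025 with circles above background on all arrays, where metformin minus control was -0.00070. High fat diet minus control ranged from 0.013 (without high fat diet array 2) to 0.065 (without high fat diet array 1) and was 0.0085 with normexp and 75th percentile scaling.

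No Fan circle was called in any comparison under the other settings run, with 3 exceptions. With normexp and 75th percentile scaling, 1 was called for high fat diet against control, Fan_16_148_1788 (-0.94, limma adjusted p = 0.0466). Among all 25777 tested circRNAs, 19 were called there. With the authors' deposited values, 2 were called when metformin was set against high fat diet and 2 when it was set against control. In these comparisons 14 and 23 of all 25864 tested circRNAs were called. Fan_16_148_1379 was higher by 8.06 in both (limma adjusted p = 0.000137 and 6.9e-05). Every array outside the metformin group was at the floor, so 8.06 is a distance from the floor and not the size of a change. The differences of this circle in the scanner values were 0.73 and 0.58. Fan_16_148_2822, chosen after its values were seen, was at the floor on all metformin arrays and differed by -10.27 and -11.31 (adjusted p = 0.00143 and 0.000574 with limma), while its differences in the scanner values were -0.10 and -0.04. These sizes too are distances from the floor. In the scanner values its partner was slightly brighter than the probe on every metformin array and slightly dimmer on every other array.

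Single arrays were left out in turn. Fan circles at an unadjusted p under 0.05 were counted, with the share of all tested circRNAs as background. For metformin against high fat diet the count was lowest without high fat diet array 2, at 34 (1.92%, background 2.75%). It was highest without high fat diet array 1, at 89 (5.02%, background 6.82%), and was 80 without high fat diet array 3 (4.51%, background 5.74%). For metformin against control it ranged from 61 without metformin array 3 (3.47%, background 3.88%) to 117 without metformin array 1 (6.63%, background 6.66%). Slide as a covariate also gave 61 (3.45%, background 3.89%). With the replicate block the count for high fat diet against control was 97 (5.48%, background 7.46%). It was 54 (3.04%, background 4.21%) for metformin against high fat diet and 104 (5.89%, background 5.54%) for metformin against control. No Fan circle was called with the block. In a check for pairing, same-numbered arrays gave correlations from -0.141 to 0.191 and differently numbered arrays from -0.259 to 0.276. These are not the correlations of level given above, and they do not set same-numbered arrays apart. With the array column as a covariate they were 92, 52 and 125.

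As log2 ratio to the partner, the high fat diet minus control difference turned to -0.36 for Fan_16_148_1620, -0.0034 for Fan_16_148_719 and 0.038 for Fan_16_148_1788, the metformin minus high fat diet difference to 0.19 for Fan_16_148_1620 and 0.10 for Fan_16_148_1849, and the metformin minus control difference to -0.23 for Fan_16_148_142; here the ratio itself takes the partner's difference off. Of 528 alternative values of 32 named differences, 519 kept their direction and side of the threshold. These circles were named for extreme values in the same arrays, and none passed the threshold in the main fit. The count is therefore no test of the differences, and their sizes could change. With normexp and 75th percentile scaling, high fat diet minus control went from -1.68 to -0.19 for Fan_16_148_41 and from -1.37 to -0.40 for Fan_16_148_1884. Brightness over background limits the dimmest circles, for which only bounds could be given.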
